A study of Mus musculus with 12 samples.

Results

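Endothelial cells line blood and lymphatic vessels, and 180 such cells were picked out of 50416 cells of tumours grown in mice from 5 melanoma lines (0.357%, exact binomial 95% interval 0.307% to 0.413%). They were chosen on 9 genes. Cdh5, Kdr, Emcn and Tie1 together had to have at least 2 unique molecular identifiers (UMIs, counted RNA molecules), Pecam1, Cldn5 and Flt1 together at least 1, and Ptprc and Tyrobp, which mark leukocytes, 0. The 180 cells lay in 37 of 43 listed tumours, with at most 13 in a tumour. Every level of these cells against the other cells is therefore a description, with no test.

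The series concerned how melanomas are rejected or escape rejection over time, per its title. Tumours were dissociated, tagged with barcoded antibodies (hashtags), sorted for live cells and pooled for single-cell RNA sequencing of transcript 5′ ends. In the authors' hashtag table, lines SCC31 and SCC40 carry the word rejected, and the other 3, namely SCC32, SCC35 and SCC37, the word non-rejected. Each line had 2 tumours at each of days 6, 10 and 16, and the non-rejected lines also at day 20. A library of mixed lines, called the mix library, held 1 more tumour, number 3, for days 6 and 10 of SCC31, SCC35 and SCC40 and for day 20 of SCC35. Day 0 samples of each line had no mouse listed. The sources used here do not give the strain, sex, age or any treatment of the mice, and line and library cannot be told apart outside the mix library. No 2 tumours of a line had the same cage and mouse numbers. Across lines the 43 listed tumours had 29 distinct cage and mouse numbers, 8 of them listed at more than 1 day. Whether tumours of different lines shared a mouse is therefore not clear, and the tests take tumours as independent. The p-values over tumours measure the spread between these tumours.

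Depth differed between the 6 libraries. They held 2366 to 20690 barcodes and 5691826 to 112724631 gene UMIs, and the median UMI count of the chosen cells was 2087 to 7163 per library. The SCC31 library was the smallest, neither SCC31 tumour of day 16 gave an assigned cell, and only 7 chosen cells came from that line. Among assigned cells, 1845 of 55768 distinct barcodes occurred in more than 1 library, and 9 chosen cells had such a barcode. No barcode was shared between chosen cells of different libraries. All intervals and limits on shares cover counting error only.

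Blood vessel endothelium forms tubes held together by junction proteins such as VE-cadherin (Cdh5), responds to vascular endothelial growth factors (VEGFs) through the receptors encoded by Kdr, Flt1 and Flt4, and controls which leukocytes leave the blood. Lymphatic endothelium takes its identity from the transcription factor Prox1, uses Flt4 (VEGF receptor-3) as its main VEGF receptor and secretes the chemokine Ccl21, which draws dendritic cells and T cells carrying Ccr7. Endothelial cells also present antigen, and interferon raises their antigen presentation genes.

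The 2 VEGF receptor genes that separated the chosen cells most plainly were Flt1 and Flt4, and their promoters are shown because levels of these genes are compared below. Both are from RefSeq on GRCm38.p6, each 300 bases from 250 before to 50 after the annotated start, on the gene's strand, and capitals mark GGAAG, a core that ETS family factors are known to bind.
Flt1 promoter, chr5:147725962-147726261, minus strand: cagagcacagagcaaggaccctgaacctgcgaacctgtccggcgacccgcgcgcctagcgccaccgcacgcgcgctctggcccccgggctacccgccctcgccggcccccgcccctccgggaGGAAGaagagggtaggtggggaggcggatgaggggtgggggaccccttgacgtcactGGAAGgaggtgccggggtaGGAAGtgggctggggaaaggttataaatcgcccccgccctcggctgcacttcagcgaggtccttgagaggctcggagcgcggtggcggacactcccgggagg
Flt4 promoter, chr11:49609429-49609728, plus strand: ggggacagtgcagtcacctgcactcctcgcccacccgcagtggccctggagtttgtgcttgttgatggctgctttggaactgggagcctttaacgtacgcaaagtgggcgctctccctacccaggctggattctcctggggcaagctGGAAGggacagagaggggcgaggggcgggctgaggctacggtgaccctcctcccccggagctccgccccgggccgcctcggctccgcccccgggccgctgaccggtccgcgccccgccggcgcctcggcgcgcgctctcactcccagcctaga
Flt1 held 3 GGAAG and Flt4 held 1 on the strand shown, and neither held its reverse complement. On either strand the motif was in 23460 of 32851 mouse promoters of this length (71.4%), so these matches are a description of the letters and not of binding.

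Outside the 9 genes of the choice, the cells carried many further endothelial genes. All 26 further endothelial genes fixed as a list were higher in the 180 cells than in the other 50236 tumour cells, with a median log2 ratio of 7.79 against 0.01 for 12728 genes with at least 100 UMIs. Ratios were of pooled CPM (a gene's share of all UMIs of the pooled cells, times 1000000), with nothing added to either side. Their size rests on very low levels in the other cells, such as 0.0338 CPM (10 UMIs) for Rbp7. The largest were those of Rbp7, a retinoid-binding protein of capillaries (log2 11.55), Myct1 (10.75), Nts, which encodes neurotensin (10.62), Sox18, a vascular transcription factor (10.45), and Ccl21a (10.33). Fam167b (10.24), Lyve1, a hyaluronan receptor of lymphatic vessels (10.22), Mmrn2 (10.19), Ptprb, the phosphatase that acts on Tie2 and VE-cadherin (10.06), Depp1 (9.90) and Robo4 (9.75) followed. The other 14 of the leading 25 were Tmem252, Adgrl4, Gpihbp1, Esam, Mest, Flt4, Lrg1, Adgrf5, Ushbp1, Prnd, Sox7, Rasgrp3, Fabp4 and Cd300lg, the last at 8.65. Blood and lymphatic vessel genes thus stood side by side in the leading list.

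Genes of other cell types were low, except those of pericytes. The macrophage list summed to 22.2 CPM against 4962 in cells with a Ptprc or Tyrobp UMI (leukocyte-gene cells), and the T and NK cell list to 12.6 against 758. Both lists are low in part by the choice, which asked for no Ptprc and no Tyrobp. No red cell gene was detected, the keratinocyte list summed to 2.22 CPM, and 7 of 10 melanocytic genes were at 0. The fibroblast list summed to 313 CPM, against 1589 in the other cells without Ptprc and Tyrobp. The pericyte and smooth muscle list was higher, at 126 CPM against 23.3 in those other cells, with 7 of 9 genes above the rest, and it was at 582 CPM in SCC32, where Rgs5 alone was at 399. At day 0, 4 of 7227 cells met the same rule (0.0553%, 0.0151% to 0.142%): 2 of SCC32 with 14 and 19 of the 26 genes and 2 of SCC35 with 3 each.

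The 180 cells fell into 3 kinds, defined here after their counts had been seen and from lists fixed for the cell types. Cells with at least 3 of 7 lymphatic genes (Prox1, Lyve1, Pdpn, Flt4, Mmrn1, Ccl21a, Reln) are called lymphatic-like and numbered 44. The remaining cells with at least 7 of the 26 further endothelial genes are called blood vessel-like and numbered 106, and those with fewer, called few-marker cells, numbered 30. Of the 26 genes, a median of 17 was detected in blood vessel-like cells, 11 in lymphatic-like cells and 3 in few-marker cells, at median depths of 4674, 5897 and 13204 UMIs.

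**Figure D1:**
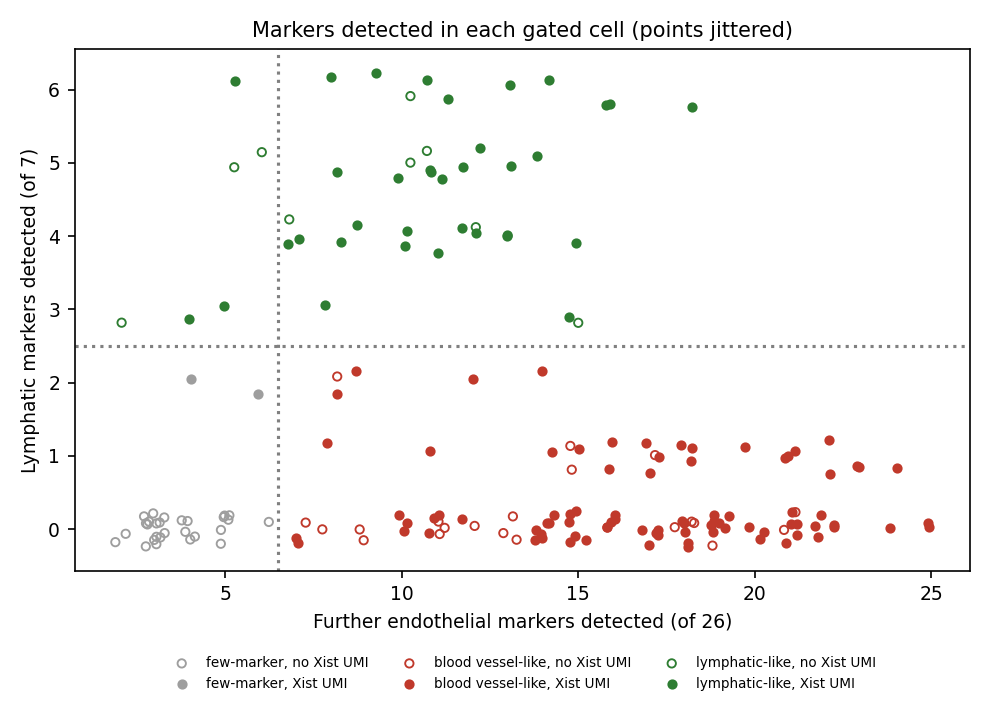
Each point is 1 of the 180 chosen cells, placed by the number of further endothelial genes detected (x axis, of 26) and of lymphatic genes detected (y axis, of 7), with filled points for cells with an Xist UMI; dotted lines are the class limits. Blood vessel-like cells spread from 7 to 25 further endothelial genes, the 44 lymphatic-like cells lie above the horizontal line, and 28 of the 30 few-marker points are open.

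The few-marker cells met the label only by its rule. They had 66 UMIs of Cdh5 and 34 of Flt1, but 1 of Kdr, 3 of Tie1, 3 of Pecam1, 5 of Cldn5 and 0 of Emcn. Xist, the RNA of the inactive X chromosome, was detected in 6.67% of them, against 79.2% of blood vessel-like cells, 77.3% of lymphatic-like cells, 50.4% of leukocyte-gene cells (median depth 2446 UMIs) and 5.4% of the other 32935 Ptprc- and Tyrobp-negative cells (median depth 5153 UMIs). With every cell thinned to 2000 UMIs, the shares with Xist were 6.9% of 29 few-marker cells (1 shallower cell left out), 54.9% of 91 blood vessel-like cells (15 left out), 48.7% of 39 lymphatic-like cells (5 left out) and 1.85% of 28140 other cells (4795 left out). Genes higher in few-marker than in blood vessel-like cells included the squamous gene Sprr1a (270 against 0 CPM), the mechanical stress gene Ankrd1 (119 against 4.86), the chromatin gene Hmga2 (718 against 118), the simple keratin Krt18 (183 against 17.8) and Sox9 (226 against 37.3). Sprr1a was detected in only 6.67% of the few-marker cells, and the others in 40% to 90%. Of these cells, 22 came from SCC35, 3 each from SCC31 and SCC40, 2 from SCC37 and none from SCC32. They are given no cell type name, and the results below are given with and without them.

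The limit of the choice fell among such cells. Of 31 cells with exactly 2 UMIs of Cdh5, Kdr, Emcn and Tie1, 23 had fewer than 7 of the 26 genes, and 22.6% had Xist (median depth 8428 UMIs). Just outside, of 84 cells with 1 such UMI that met the other conditions, 78 had fewer than 7 and 9.52% had Xist (median depth 12298 UMIs). Of 149 cells with 3 or more UMIs, 13 had fewer than 7 and 75.8% had Xist (median depth 5111 UMIs). Scrublet marked 5 of the 180 cells as doublets: 1 blood vessel-like, 3 lymphatic-like and 1 few-marker.

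The VEGF receptors differed between the 2 vessel kinds. Flt1, the receptor and decoy for VEGF-A and placental growth factor, had 381 UMIs in blood vessel-like cells (617 CPM) and 1 in lymphatic-like cells (3.66 CPM). Flt4 had 27 (43.8 CPM) and 162 (593 CPM). Kdr, the main signalling receptor for VEGF-A, was at 444 and 366 CPM. Of the co-receptors, Nrp1 was at 245 and 14.6 CPM and Nrp2, the partner of Flt4, at 201 and 750. Among ligands, placental growth factor (Pgf) was at 61.6 and 212 CPM, and Vegfa was near the floor of 3 counts in blood vessel-like cells at 3.24 CPM, below the 33.2 CPM of the other Ptprc- and Tyrobp-negative cells and the 75.6 of leukocyte-gene cells. Flt4 was one of the 7 genes that made the lymphatic-like class, and Flt1 one through which cells could be chosen, so both differences are drawn in part from the rule, while Nrp1 and Nrp2 were used in neither step.

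Other genes differed as widely. Of genes used neither to choose nor to divide the cells, lymphatic-like cells had more Ptx3, a secreted pattern recognition molecule (534 against 9.72 CPM), Ggct (508 against 6.48), Gap43 (209 against 1.62), Maf, a transcription factor (534 against 45.4), Thy1 (476 against 42.1), Nts (680 against 64.8) and Tbx1, a lymphatic transcription factor (176 against 8.1). Blood vessel-like cells had more Fabp4, a fatty acid carrier (5047 against 402 CPM), and Cxcl12 (350 against 3.66). Cd93 had 503 UMIs in blood vessel-like cells and 0 in lymphatic-like cells, where the floor of 3 counts is 11 CPM. Aplnr (217 CPM) and Rbp7 (222) were likewise at 0 UMIs in lymphatic-like cells. Igfbp3 (1053 against 3.66 CPM) and Ubd (927 against 3.66) also differed between the pools, but most lymphatic-like cells came from SCC40 at days 10 and 16, where the blood vessel-like cells of the 4 tumours that had any held 0 counts of Ubd and 1 of Igfbp3, so kind and line cannot be told apart for these genes. Among genes that the choice or the class limits used, Cldn5, a tight junction gene, was at 1101 CPM in lymphatic-like and 253 in blood vessel-like cells. Gpihbp1, the capillary anchor of lipoprotein lipase, was at 18.3 and 823, and Plvap, the diaphragm protein of fenestrae, at 307 and 1792. The further endothelial genes Egfl7 and Ramp2 were at like levels, Egfl7 at 827 CPM in blood vessel-like and 1065 in lymphatic-like cells and Ramp2 at 943 and 1002.

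The lymphatic genes themselves, which made the class, were at these levels. Ccl21a had 2808 UMIs in lymphatic-like cells, with at least 1 in each of the 44, and 127 in blood vessel-like cells (10272 and 206 CPM). Its symbol is held by more than 1 feature and the Ccl21 genes are near-identical copies, so the split between copies is uncertain (the values are of ENSMUSG00000094686). Lyve1 had 129 and 2 UMIs, Prox1 75 and 4, Pdpn, which encodes podoplanin, 47 and 4, and Reln, which encodes reelin, 53 and 0. Mmrn1 was at 0 in all 180 cells. Outside the chosen cells Ccl21a had a UMI in 0.0518% of tumour cells and Lyve1 in 0.0239%, at a median depth of 4194 UMIs.

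Lymphatic-like cells came mainly from the rejected line SCC40. Of its 54 chosen cells 38 were lymphatic-like (70.4%, 56.4% to 82%), against 6 of 126 in the other lines together (4.76%, 1.77% to 10.1%). SCC32 had 3 of 24 (2 at day 6 and 1 at day 10), SCC37 had 3 of 25, all at day 16, SCC31 had 0 of 7 and SCC35 had 0 of 70, which allows a share of up to 0.0163% of its assigned cells. In the mix library, where lines shared a library, SCC40 had 6 of 11 and SCC35 had 0 of 14. Few-marker cells are in these totals. In the mix library they were 1 of the 11 SCC40 cells and 9 of the 14 SCC35 cells, which left 5 blood vessel-like cells in SCC35. Over all libraries they were 3 of the 54 SCC40 cells and 27 of the 126 of the other lines, 22 of these in SCC35. Outside the chosen cells, 3 Ptprc- and Tyrobp-negative cells had at least 3 lymphatic genes, 2 of them in SCC40 and 1 in SCC35. In the tumour cells outside the choice Ccl21a was at 5.19 CPM in SCC40, with a UMI in 0.107% of 11174 cells, and at 0.0821 to 2.82 CPM in the other lines.

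In SCC40 the lymphatic-like cells were of days 10 and 16. At day 6 the 3 tumours had 0, 1 and 0 of them. At day 10, tumours 1, 2 and 3 had 7 of 10, 5 of 8 and 6 of 10 chosen cells, and at day 16 tumours 1 and 2 had 9 of 11 and 10 of 11. As a share of all assigned cells they made up 0.0236% ± 0.0408 (SD, n = 3) at day 6, 0.363% ± 0.0338 (n = 3) at day 10 and 0.731% ± 0.12 (n = 2) at day 16, and no tumour of one of these days reached the range of another. Blood vessel-like cells of SCC40 were at 0.0725% ± 0.0708, 0.17% ± 0.0674 and 0.0718% ± 0.102 on the same days, which overlapped. These classes were set after the counts had been seen, so no test is given.

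**Figure D2:**
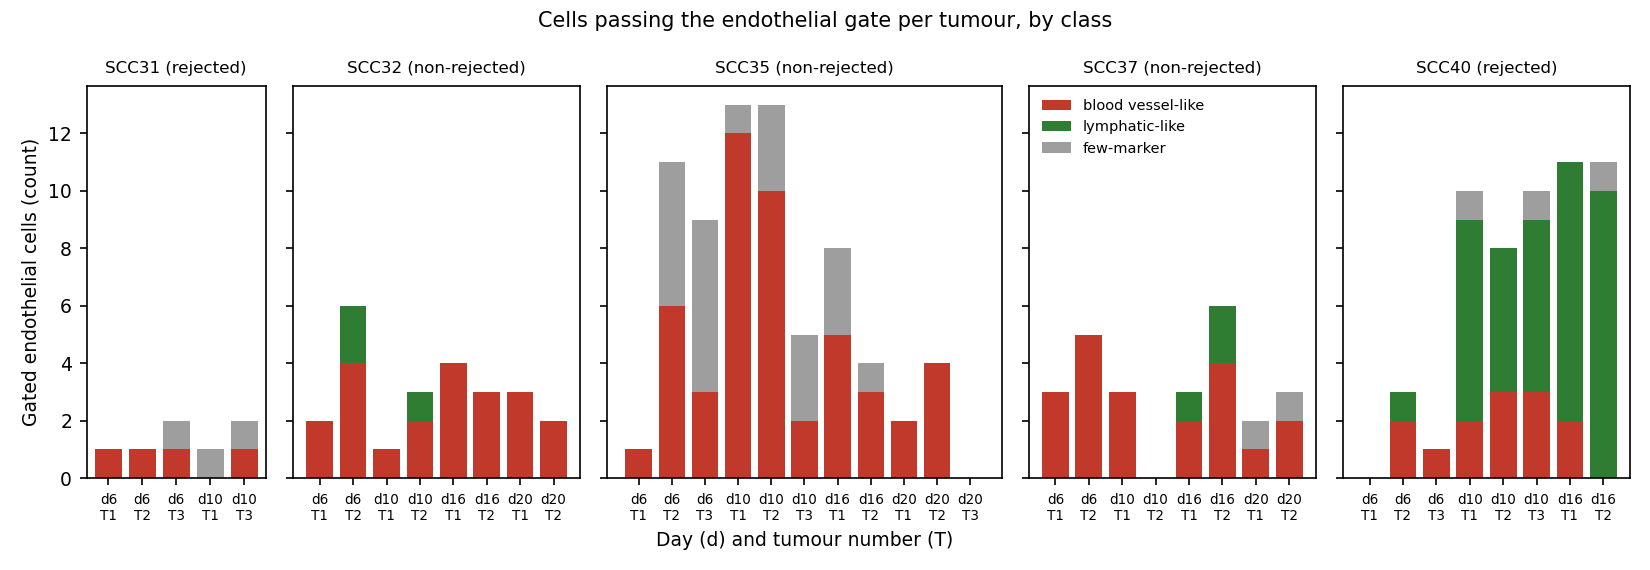
Bars give the number of chosen cells (y axis) in each tumour with at least 20 assigned cells (x axis, day and tumour number, 1 panel per line), divided into blood vessel-like, lymphatic-like and few-marker cells. Lymphatic-like cells fill 5 to 10 places in each SCC40 tumour of days 10 and 16 and none in SCC35 and SCC31, and few-marker cells are most frequent in SCC35.

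The 5 SCC40 tumours of days 10 and 16 were told apart by these antibody barcodes, each 15 bases, 5′ to 3′, shown because the comparison below rests on them.
HASH_M5, day 10 tumour 1: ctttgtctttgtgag
HASH_M6, day 10 tumour 2: tatgctgccacggta
HASH_M7, day 16 tumour 1 in the SCC40 library and day 10 tumour 3 in the mix library: gagtctgccagtatc
HASH_M8, day 16 tumour 2: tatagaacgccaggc
The same barcode HASH_M7 stood for different tumours in 2 libraries, and the library separates them.

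Within the SCC40 lymphatic-like cells, antigen presentation and interferon response genes were higher at day 16 (9 and 10 cells in 2 tumours) than at day 10 (7, 5 and 6 cells in 3 tumours). H2-Aa, the alpha chain of the class II molecule I-A, was at 69.4, 107 and 104 CPM in the day 10 tumours and at 528 and 324 in the day 16 tumours. H2-Eb1, the beta chain of I-E, was at 52, 80.3 and 311 against 880 and 497. Cd74, the class II invariant chain, was at 642, 776 and 1416 against 3835 and 1795. Both day 16 tumours lay above the 3 day 10 tumours for each of these genes, while H2-Ab1 overlapped (69.4, 53.5 and 518 against 440 and 151).

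Class I genes lay higher as well. H2-K1, a class I heavy chain, was at 2584, 2141 and 2314 CPM at day 10 and at 3853 and 3265 at day 16. B2m, the class I light chain, was at 3121, 3881 and 3178 against 4539 and 4368. Tap1, the peptide transporter, was at 69.4, 80.3 and 242 against 369 and 368, and Psmb9, an immunoproteasome subunit, at 260, 26.8 and 207 against 704 and 497. Of 13 antigen presentation genes with at least 20 UMIs in these cells, 11 were higher in both day 16 tumours than in every day 10 tumour and 0 were lower in both. Over all 1845 genes measured, 14.5% were higher without overlap and 8.18% lower.

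Interferon response genes followed the same order. The guanylate-binding protein gene Gbp2 was at 0, 26.8 and 138 CPM at day 10 and 1091 and 303 at day 16, and the GTPase gene Iigp1 at 191, 241 and 138 against 651 and 692. Ifitm3, an antiviral membrane protein, was at 3537, 4497 and 2832 against 8585 and 6681. Of 18 interferon response genes measured, 13 were higher without overlap, with a median log2 difference of 1.57 over the list against 0.02 over all genes. For the antigen presentation list the median was 1.21.

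Ccl21a was at 6589, 5675 and 8670 CPM at day 10 and 15199 and 13168 at day 16, and Lrg1, a secreted regulator of endothelial TGF-beta signalling, at 34.7, 0 and 0 against 633 and 1016. Flt4 (468, 348 and 656 against 721 and 800) and Reln (104, 134 and 207 against 317 and 238) were also higher without overlap. Prox1 (139, 294 and 484 against 352 and 216), Lyve1 (468, 214 and 415 against 616 and 411), Cdh5 (416, 509 and 1036 against 493 and 519) and Kdr (277, 401 and 553 against 299 and 541) overlapped between the days. Lower at day 16 without overlap were S100a6 (4179, 6210 and 2591 against 1355 and 1232) and Id3, a target of bone morphogenetic protein signalling (624, 294 and 242 against 52.8 and 151).

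The other cells of the same tumours differed between the days in part. In their other Ptprc- and Tyrobp-negative cells 11 of 15 antigen presentation genes were higher at day 16 without overlap, with a median log2 difference of 0.50, and 9 of 24 interferon response genes, with a median of 0.09, where 11.5% of 12768 genes were. In their leukocyte-gene cells 6 of 15 and 9 of 24 were, where 9.26% of 11495 genes were. The part of RNA from other cells, of 5 to 10 cells per tumour and of the library in these differences was not tested.

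**Figure D3:**
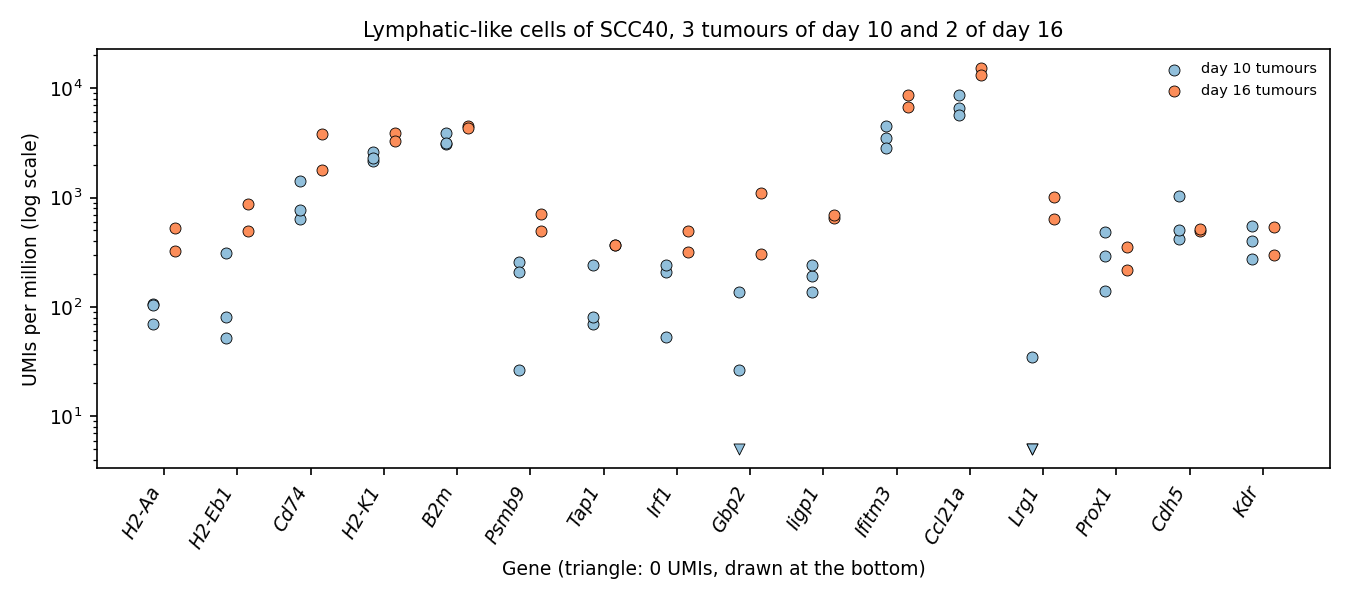
Points give CPM (y axis, log scale) of 16 genes (x axis) in the lymphatic-like cells of each SCC40 tumour, 3 of day 10 and 2 of day 16; triangles mark 0 UMIs. The day 16 points lie above all day 10 points from H2-Aa to Lrg1, and overlap with them for Prox1, Cdh5 and Kdr.

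Blood vessel-like cells had markers of several vessel segments. At least 3 genes of the capillary list (9 genes) were detected in 91 of 106 cells, of the tip and angiogenic list (15) in 104, of the venous list (9) in 57 and of the arterial list (12) in 33. The lists hold broadly expressed genes such as Fabp4 and Plvap, so they do not assign a cell to a segment. Selp, the P-selectin of venous endothelium, was detected in 8 cells and Gja4, a connexin of arteries, in 14, and in no cell together. Of the tip cell genes, Esm1 was detected in 26 cells, and Angpt2, the Tie2 antagonist, in 31. Of these 31 cells, 19 also had the Notch ligand Dll4, detected in 48, where the product of shares gives 14.

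In the non-rejected lines, interferon response genes of blood vessel-like cells were lower in later (days 16 and 20) than in earlier tumours (days 6 and 10). The pools were 9 earlier and 12 later cells in SCC32, 34 and 14 in SCC35, and 11 and 9 in SCC37. The 24 genes of the list summed to 36865 CPM earlier and 21638 later in SCC32, to 15069 and 7896 in SCC35, and to 28347 and 15772 in SCC37. Of the genes with at least 20 UMIs, 21 of 23 were lower later in SCC32 (45.1% of all genes measured there), 20 of 20 in SCC35 (47.5%) and 18 of 18 in SCC37 (49.1%). Of 17 list genes measured in each line, 15 were lower later in all 3, where 19.6% of 734 measured genes were. Of 10 antigen presentation genes 9 were. Immediate-early and stress genes, which handling of cells can raise, were lower later in the same pools as well, 8 of 12 in all 3 lines. In the other Ptprc- and Tyrobp-negative cells 11 of 13 of them were higher later in all 3 lines, where 26.8% of 12358 genes were. The part of these stress genes in the result was not tested.

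Genes of the interferon response list, and of the chemokine and antigen presentation lists, differed in size. Gbp2, of the interferon response list, was at 2264 CPM earlier and 485 later in SCC32, 463 and 52.4 in SCC35, and 1572 and 301 in SCC37. Cxcl9, a chemokine for T cells, was at 8896 and 1608, 1321 and 170, and 2142 and 1788, and Cxcl10, of the same receptor, at 2279 and 1770, 666 and 52.4, and 1641 and 583. Ifitm3, of the interferon response list, was at 8722 and 5104, 4383 and 2449, and 6039 and 4179. The antigen presentation gene H2-K1 was at 5208 and 3603, 2688 and 1244, and 5081 and 3496, and Cd74 at 1773 and 881, 307 and 39.3, and 410 and 181. Ubd, a ubiquitin-like modifier that is in none of these lists, was lower later in SCC32 (2453 and 198) and SCC35 (785 and 39.3). In SCC37 its counts were 17, 1 and 2 in the earlier tumours and 39 in day 16 tumour 1, with 2 cells, and 4, 0 and 0 in the other later tumours, so its direction there turns on 1 tumour.

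The single tumours show between which days the sums differed. In SCC32 the list summed to 46761 and 42533 CPM in the day 6 tumours, 15030 and 13449 at day 10, 24303 and 21543 at day 16 and 21129 and 18411 at day 20. Its day 10 tumours, with 1 and 2 cells, thus lay below all later ones, and its earlier and later tumours overlapped. In SCC37 the tumours were at 37113 and 24358 at day 6, 23214 at day 10, 19784 and 16300 at day 16 and 16462 and 11224 at day 20, with no overlap between earlier and later. In SCC35 they were at 19089, 19842 and 23996 at day 6, 13703, 11820 and 18517 at day 10, 6661 and 7760 at day 16 and 14292 and 8404 at day 20, and overlapped. In the rejected SCC40, the 2 day 6 tumours with such cells were at 37181 and 31928, the day 10 tumours at 12103, 8252 and 13458 and 1 day 16 tumour at 16187. Every day 6 tumour of SCC32, SCC35, SCC37 and SCC40 lay above every day 10 tumour of its line. In SCC31 the day 6 tumours, with 1 cell each, were at 34279, 13950 and 36395 and the day 10 tumour at 16804, which overlapped. The leukocyte-gene cells of the same tumours also lay higher at day 6 than at day 10 in SCC32, SCC35, SCC37 and SCC40. In SCC35 the margin was small (7697 against 7688). The other Ptprc- and Tyrobp-negative cells did in SCC32 (23993 and 25499 against 13921 and 13170) and SCC40 (25520 and 20517 against 8749, 10096 and 7373). In SCC35 and SCC37 these other cells overlapped.

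In the pools of days, the other Ptprc- and Tyrobp-negative cells were also lower later in SCC32, where the list summed to 20175 CPM earlier and 14666 later, and in SCC37, at 13739 and 10103. In both lines 22 of 24 genes were lower later (49.3% and 53% of all genes measured). In SCC35 the other cells were at 6282 and 6230 CPM, and 4 of 24 genes were lower later (40.9% of all genes measured), against 20 of 20 in its blood vessel-like cells. In all 3 lines together 4 of 24 were lower in the other cells, where 22.4% of 12358 genes were. Tumour by tumour, the other cells of SCC35 ran from 5679 to 6956 CPM, and its blood vessel-like cells from 6661 to 23996. In the leukocyte-gene cells of the same SCC35 tumours the list was at 6885 to 8931 CPM earlier and 6095 to 7254 later. These also lay mostly lower later, with an overlap. The blood vessel-like pools are of 1 to 12 cells per tumour and were compared after earlier results had been seen, so they have no test.

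Basement membrane genes of the same cells were higher in the later pools. The 12 genes summed to 13518 CPM earlier and 16552 later in SCC32, 12927 and 18255 in SCC35, and 16133 and 19650 in SCC37. The single tumours overlapped in SCC32 (11820 to 33904 earlier, 6308 to 23960 later) and in SCC37 (13643 to 20053 and 13489 to 27542), and did not in SCC35 (5850 to 16511 and 16926 to 23283). The pericyte and smooth muscle list was also higher later, at 15.8 and 988 CPM in SCC32 and 46.8 and 485 in SCC35. Its gene Rgs5 was found in 1.89% of the blood vessel-like cells, and the list's part in the result was not tested. Of the 12, Lamc1, Hspg2, Col4a1, Col4a2, Lama4, Sparc, Lamb1 and Nid2 were higher later in all 3 lines, where 16.1% of 734 genes were. Col4a1, a collagen IV chain, was at 2422 and 2875, 2049 and 3981, and 3600 and 4280 CPM. Igfbp3 was at 332 and 557, 1149 and 2279, and 615 and 2873, and Cxcl12 at 111 and 629, 255 and 694, and 296 and 342. The tip cell genes were less uniform: Apln was at 79.1 and 314, 36.4 and 288, and 433 and 261 CPM. In the other Ptprc- and Tyrobp-negative cells the basement membrane sums were also higher later. They were at 4924 and 5328 CPM in SCC32, 3848 and 6136 in SCC35, and 4821 and 5610 in SCC37. There 5 of the 12 genes were higher later in all 3 lines, among them Hspg2, Lama4 and Lamb1, and 2 were lower. Of 12358 genes in those cells 26.8% were higher and 22.4% lower.

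**Figure D4:**
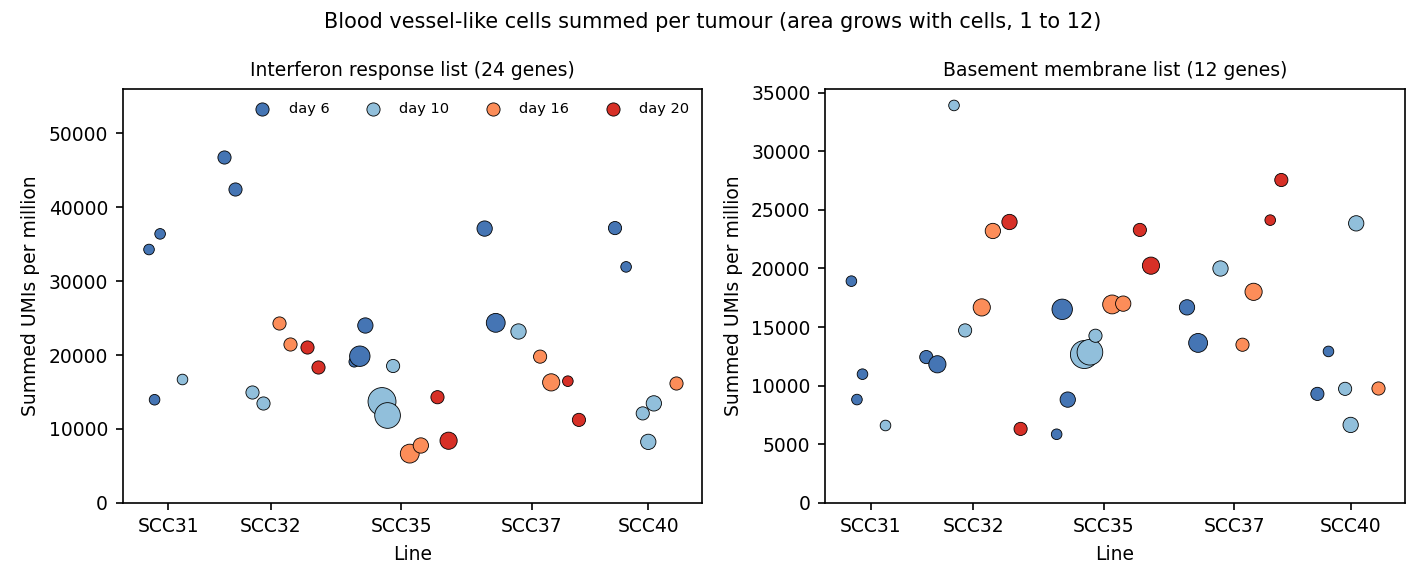
Each point is the blood vessel-like cells of 1 tumour, summed, with the interferon response list (left) and the basement membrane list (right) in summed CPM (y axes), by line (x axes); colour gives the day and point area the number of cells, 1 to 12. Day 6 points are the highest of their line on the left in SCC32, SCC35, SCC37 and SCC40, and on the right the points of single cells and of SCC40 scatter widely.

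The following 3 comparisons of gene expression were tested with edgeR's quasi-likelihood test and Benjamini-Hochberg adjustment over all genes, on counts summed over the chosen cells of a tumour or line. In the first, 4 later tumours were compared with 10 earlier ones of the same lines, each with at least 5 chosen cells. Only SCC35 (5 earlier and 1 later), SCC37 (1 and 1) and SCC40 (3 and 2) gave a contrast, since SCC32 had 1 such tumour. Of 2350 genes, 4 rose (0.17%) and 1 fell (0.0426%) at an adjusted p under 0.05, 0.213% in all, and 188 had an unadjusted p under 0.05.

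The counts behind the 5 genes lay in few tumours. Ccl21a rose by a log2 fold change of 2.80 ± 0.53 (SE, edgeR adjusted p = 0.0295), with 243, 3241, 14383 and 10570 CPM in the later tumours of SCC35, SCC37, SCC40 and SCC40. Of the 10 earlier tumours 6 were at 0, and the SCC40 ones were at 4063, 4073 and 3083. H2-Eb1 rose by 3.04 ± 0.52 (edgeR adjusted p = 0.0152), with 66.2, 71, 790 and 399 CPM in those tumours and 0 to 411 in the earlier ones, where 30.2, 50.7 and 99.5 were the SCC40 values. Crybb3, a crystallin, rose by 3.60 ± 0.64 (edgeR adjusted p = 0.0179), with 22.1, 94.6, 269 and 364 CPM later and 0 to 33.2 earlier. Crabp1, a retinoic acid-binding protein, rose by 5.67 ± 0.89 (edgeR adjusted p = 0.0152), but 19 of its 21 later counts lay in 1 SCC35 tumour of day 16 (419 CPM), of whose 8 chosen cells 3 were few-marker cells. Ly6c1, a surface antigen of blood vessel endothelium and some leukocytes, fell by 1.52 on the log2 scale (SE 0.30, edgeR adjusted p = 0.0408), with 507, 946, 300 and 243 CPM later and 935 to 3950 earlier. The groups overlapped for Ccl21a, H2-Eb1, Crabp1, Crybb3 and Ly6c1.

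The shares of the cell kinds differed between these tumours, and their part in the calls was not tested. Lymphatic-like cells made up 9 of 11 and 10 of 11 chosen cells in the later SCC40 tumours, 7 of 10, 5 of 8 and 6 of 10 in the earlier ones, 2 of 6 in the later SCC37 tumour and 0 of 5 in the earlier one. Without few-marker cells, where 8 earlier tumours were left, 0 of 1699 genes passed edgeR's test (77 at an unadjusted p under 0.05), and H2-Eb1 had a log2 fold change of 2.52 with an edgeR adjusted p of 0.219. There Ccl21a had a log2 fold change of 1.82 with an edgeR adjusted p of 0.448, and the later SCC35 tumour was at 0. With blood vessel-like cells alone 1 later and 4 earlier tumours were left, and 0 of 783 genes passed (63 at an unadjusted p under 0.05), a fit in which the lone later tumour is assumed to vary like the others. DESeq2 called 6 genes on the main counts. No gene passed without SCC40 day 16 tumour 1.

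By list, 1 of 6 tested lymphatic genes (Ccl21a) and 1 of 13 antigen presentation genes (H2-Eb1) rose, where 0.17% of all genes did, and 0 of 24 interferon response, 0 of 12 tip and angiogenic and 0 of 12 basement membrane genes passed. The median log2 fold changes were 1.63, 0.83, 0.51, 0.78 and 0.62, against 0.00 over all genes. All 6 lymphatic and all 13 antigen presentation genes had positive values. With blood vessel-like cells alone, from 1 later tumour, the medians were -2.31 for the interferon response and -0.86 for the antigen presentation list, with 0 of 9 antigen presentation genes positive.

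The second comparison set the rejected line with enough cells against the non-rejected lines at days 6 and 10 together. SCC31, with 7 cells, fell below 10 cells, so it compared SCC40 alone with SCC32, SCC35 and SCC37, and outcome and line cannot be told apart. With 1 line on one side the spread comes from the 3 other lines alone, and SCC40 is assumed to vary like them. Of 4385 genes, 2 were higher in SCC40 (0.0456%) and none lower, and 137 had an unadjusted p under 0.05. Ptx3 had 69 counts in SCC40 (244 CPM), 1 in SCC32 (12.6 CPM) and 0 in SCC35 and SCC37, a log2 fold change of 6.69 ± 1.08 (SE, edgeR adjusted p = 0.0142). Lyve1 had 49 counts (173 CPM), 1 (12.6 CPM), 0 and 0, a log2 fold change of 6.20 ± 1.11 (SE, edgeR adjusted p = 0.032). Both fitted values depend on the prior count, since 2 lines had no count. DESeq2 called 1 gene. Both genes were among those higher in lymphatic-like cells above, and Lyve1 is one of the genes that define them.

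Without few-marker cells the same comparison called 69 of 3360 genes (2.05%), 25 higher in SCC40 (0.744%) and 44 lower (1.31%), with 349 at an unadjusted p under 0.05. Among them, Ptx3 was higher in SCC40 (log2 6.44 ± 0.84, edgeR adjusted p = 7.75e-11) and Igfbp3 lower, at 10.2 CPM against 265 in SCC32, 1149 in SCC35 and 615 in SCC37 (log2 -5.89 ± 0.91, edgeR adjusted p = 1.25e-07). The mix of kinds differed between the lines compared. SCC40 had 1 lymphatic-like and 3 blood vessel-like cells at day 6, and 18 and 8 at day 10. SCC32 had 2 and 6 at day 6, and 1 and 3 at day 10, and SCC35 and SCC37 had 0 lymphatic-like cells on these days. Ptx3 and Igfbp3 also differed between the kinds above, and the part of this mix in the calls was not tested. Genes that the choice of cells or the class limits used are given as levels, with no test. Lyve1 was at 251 CPM in SCC40 and 0 to 12.6 in the other lines, Prox1 at 174 and 0 to 50.4, and Flt4 at 322 and 20.8 to 114. Cldn5 was at 783 CPM against 252, 151 and 137, Flt1 at 123 against 655, 614 and 775, and Plvap at 425 against 2141, 2512 and 1458. No line overlapped SCC40 for these 6 genes.

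With blood vessel-like cells alone, 5 of 1288 genes passed (0.388%, 40 at an unadjusted p under 0.05), 3 higher (0.233%) and 2 lower (0.155%). SCC32, with 9 such cells, dropped out, so this set 1 line against 2. Igfbp3 was lower in SCC40 (log2 -4.64), and Hist1h2ae and Phlda1 were higher. Cryab, the other gene with a lower fitted value (log2 -4.38), overlapped. It was at 17.1 CPM in SCC40 and at 0 and 671 in the 2 other lines, so it was high in 1 of these. The third higher gene, Ccl21a, one of the genes of the class limit, had a UMI in 3.77% of the 106 blood vessel-like cells, with 81 counts in SCC40 and 0 in SCC35 and SCC37, and is given as a value.

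The third comparison asked whether the later-against-earlier change of chosen cells differed from that of the other Ptprc- and Tyrobp-negative cells of the same tumours, with the tumour as a block. Of 11942 genes, 2 changed more upward in the chosen cells (0.0167%) and 3 more downward (0.0251%), 0.0419% in all (884 at an unadjusted p under 0.05). Angpt2, which loosens vessels for sprouting, had a log2 difference of 2.49 ± 0.50 (SE, edgeR adjusted p = 0.0122), with 132, 520, 221 and 191 CPM in the later chosen cells, 20.1 to 157 in the earlier ones and 5.37 to 23.4 in the other cells. Phlda1 had a difference of -2.65 ± 0.41 (edgeR adjusted p = 0.000179), with 15.8 to 154 CPM later and 174 to 760 earlier, which did not overlap, and 399 to 1124 in the other cells. Without few-marker cells Phlda1 was at 15.8 to 142 CPM later and 0 to 760 earlier, which overlapped. Cxcl1, a neutrophil chemokine, had a difference of -2.96 ± 0.53 (edgeR adjusted p = 0.00221), with 177, 94.6, 0 and 174 CPM later, 52.3 to 1863 earlier and 449 to 2476 in the other cells. Ly6c1 had a difference of -2.15 ± 0.39 (edgeR adjusted p = 0.00231). Dcn, which encodes decorin, had 5.84 ± 1.21 (edgeR adjusted p = 0.0196) on 8 later counts and 1 earlier, 6 of them in 1 SCC37 tumour of day 16.

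Without few-marker cells this comparison called 30 of 11592 genes (0.259%), 6 upward (0.0518%) and 24 downward (0.207%). Among the latter were Fabp4 (log2 -2.76, edgeR adjusted p = 2.4e-08), Ubd (log2 -3.92) and Ly6a (log2 -1.73), of the interferon response list. Plvap, a gene of the class limits, is given as a value, at 195 to 1888 CPM later and 287 to 3621 earlier. Lymphatic-like cells, which had less Fabp4 and Plvap, made up 9 of 11 and 10 of 11 chosen cells in the later SCC40 tumours. The part of this mix in the calls was not tested. With blood vessel-like cells alone the later side was 1 tumour, which had 0 counts of Cxcl9 and Cxcl10, and the 2 genes called of 11277 (0.0177%) are values of that tumour rather than a test of time.

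The share of chosen cells among assigned cells was compared over tumours with exact permutation tests, adjusted over 4 comparisons. A share of the cells recovered cannot tell fewer endothelial cells in a tumour from fewer released by dissociation. From the first to the last day of a line, the mean share went down by a mean of 0.0756 percentage points over the 5 lines, with p = 0.588 (adjusted 0.6, two-sided exact permutation, 72000 permutations). Between lines the exact permutation p was 0.152 at day 6 and 0.122 at day 10 (both adjusted 0.304). By outcome, the mean over lines was 0.493% ± 0.225 (SD, n = 2) in rejected and 0.371% ± 0.147 (n = 3) in non-rejected lines, with p = 0.6 (adjusted 0.6) where 10 exact permutations allow no p below 0.1.

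Of the 5 lines, 2 had first and last days that did not overlap, in opposite directions. In SCC40 the share was 0.0961% ± 0.107 (SD, n = 3) at day 6 and 0.844% ± 0.0766 (n = 2) at day 16, and in SCC37 it was 0.514% ± 0.0421 (n = 2) at day 6 and 0.196% ± 0.0102 (n = 2) at day 20. The lymphatic-like share of SCC40 was 0.0236% and 0.731% on those days, and its blood vessel-like share 0.0725% and 0.0718%. In SCC31, SCC32 and SCC35 the first and last days overlapped.

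**Figure D5:**
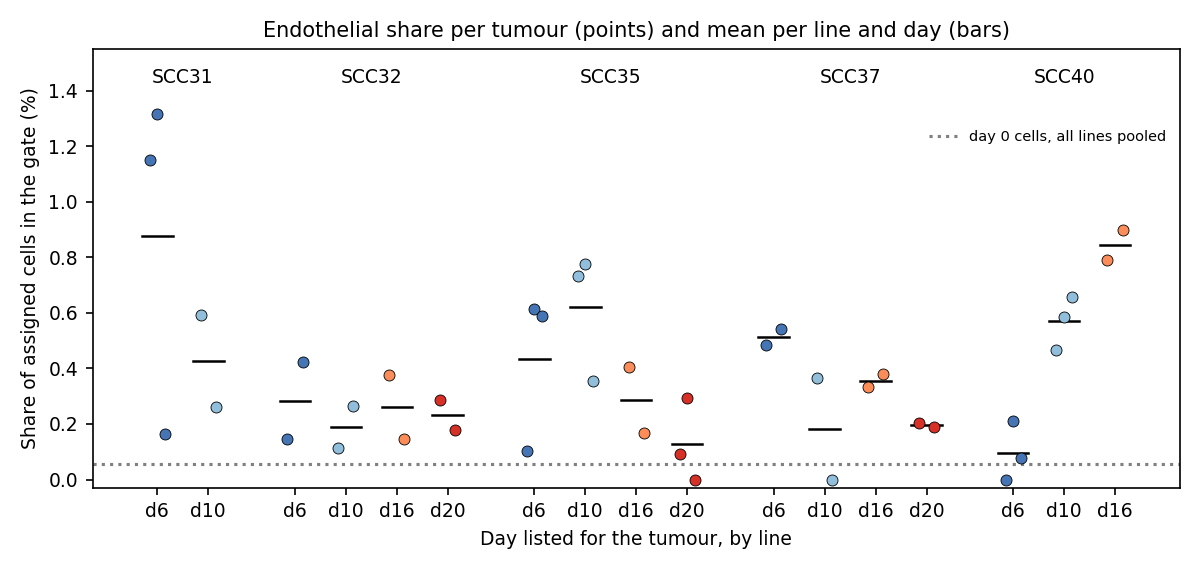
Points give the percentage of assigned cells that met the endothelial rule in each tumour (y axis) by line and day (x axis), short bars the mean per line and day, and the dotted line the 0.0553% of day 0 cells. SCC40 runs from 0.0961% at day 6 to 0.844% at day 16, and SCC37 from 0.514% to 0.196% at day 20.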

How the data were processed

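The 6 10x Genomics libraries of gene expression and hashtag reads were used. The authors deposited raw UMI counts per gene and barcode, made with Cell Ranger 6.0.0 on mm10, per the submitters' processing notes, with no normalisation of the counts. The members, classes and gene lists were chosen with earlier results of these data known. Of 80184 barcodes, 66887 cells with at least 300 genes and at most 15% mitochondrial counts were kept. A cell was assigned to its leading listed hashtag at 10 or more counts and at least 2 times the next, which gave 57643 cells, 50416 of tumours. Doublets with 2 hashtags were left out in this way, and Scrublet (scanpy 1.11.5, expected rate 0.08) was run as a mark only. The SCC31 library's own threshold called 2 cells, so the median threshold of 0.262 was used there. Depth per library was 5691826 to 112724631 UMIs, and the few cells limit the precision.

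Levels are pooled CPM (UMIs of a gene per 1000000 UMIs), and the floor is 3 counts over a pool. Log2 differences of day 16 against day 10 in SCC40 had 1 CPM added to each side. Shares used exact permutation tests (Python 3.11.15, numpy 2.4.6, scipy 1.17.1) on tumours with at least 20 assigned cells. Gene tests used counts summed per tumour (5 or more chosen cells) or line (10 or more), TMM scaling, edgeR's default low count filter and quasi-likelihood test (edgeR 4.0.16, R 4.3.3), Benjamini-Hochberg adjustment and a threshold of 0.05. DESeq2 1.42.0 was an alternative. The line was a covariate over time, and the tumour a block in the test between cell kinds. Named genes are the 9 genes of the choice, the 25 with the largest ratio to other tumour cells among genes with at least 100 UMIs, every called gene where 30 or fewer were called, otherwise the 12 largest called rises and falls without overlap, and called or abundant list members. Genes that lead a class of chosen cells (at least 40 UMIs), and those compared within classes, were picked after their values were seen. On simulated counts with 200 genes changed 8-fold, 86.5% were recovered in the comparison over time (2600 genes, 0 false calls), 37.5% in that of outcome (4407 genes, 4 false) and 71.5% in that between cell kinds (11925 genes, 6 false). The simulation had a fixed dispersion and changed only genes above a minimum mean count. It held no differences between lines and no mix of blood vessel-like, lymphatic-like and few-marker cells, so these rates may not hold for the real counts. Alternatives were the filters, scaling, minimum cells, gate, doublets, each tumour or line left out, DESeq2 and the tumour number as a block. Tumour numbers did not pair tumours by label. Deviations of same-numbered tumours of 11 tumours of SCC35 and SCC40 had a median correlation of -0.0217 (15 pairs), and of others -0.125 (40 pairs).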

Additional observations from a re-analysis of the deposited data

Results flagged for a closer look

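Tumours far from the others of their group were found in 5 of 18 groups of named genes examined. Among earlier tumours these were Crybb3 in SCC40 day 10 tumour 3 (33.2 CPM), Ly6c1 in SCC32 day 6 tumour 2 (3950 CPM), H2-Eb1 in the same SCC32 tumour (411 CPM) and Dcn in SCC35 day 6 tumour 3 (7.51 CPM). Among later tumours it was Crabp1 in SCC35 day 16 tumour 1 (419 CPM). No chance rate is given, since the genes were picked for being called and several had many tumours at 0. The Dcn value was 1 count, with 9 of the 10 earlier tumours at 0.

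The share of chosen cells moved in opposite directions without overlap in SCC37 (-0.318 percentage points from the first to the last day) and SCC40 (0.748), and the difference between the lines was not tested. The change over time differed between the chosen cells and the other Ptprc- and Tyrobp-negative cells, by edgeR's quasi-likelihood test of that difference, for Cxcl1 (log2 -2.96), Angpt2 (2.49), Dcn (5.84), Phlda1 (-2.65) and Ly6c1 (-2.15).

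At day 0, with no mouse listed, 4 cells met the rule for endothelial cells. The 2 of SCC32 had 14 and 19 of the 26 further endothelial genes and no Xist UMI, and the 2 of SCC35 had 3 each.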

How the results depend on the processing

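The 4 share comparisons kept their direction and their side of the threshold in 86 of 90 alternatives, 3 turned the direction and 1 passed the threshold. The outcome comparison could not pass it, whatever the setting. With at least 3 UMIs of the first gene group, the first-to-last difference was 0.0182 percentage points in place of -0.0756. The outcome difference of 0.122 became -0.000151 with blood vessel-like cells alone, and lay between -0.0371 (without SCC31, reversed) and 0.281 with a line left out. At day 6 the sum of squares between lines ranged from 0.561 to 1.14 with a tumour left out, the latter without SCC31 tumour 3 (exact permutation p = 0.0085, adjusted 0.034).

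Counts of called genes moved more. Over time, the 5 genes became 17 without a low count filter, 1 with at least 10 cells per tumour, 0 with at least 3, 0 with the tumour number as a replicate block (116 at an unadjusted p under 0.05), 0 without few-marker cells, 0 with blood vessel-like cells alone, and 0 to 6 with a tumour left out: 0 without SCC40 day 16 tumour 1, 1 without SCC40 day 10 tumour 1 or 2, and 3 without SCC35 day 16 tumour 1 or SCC40 day 16 tumour 2. By outcome, the 2 genes became 1 with DESeq2, 6 without the filter, 1 with all days, 0 without Scrublet doublets, 69 without few-marker cells, 5 with blood vessel-like cells alone, and 0 (without SCC37) to 138 (without SCC35, of 1913 genes) with a line left out, with 7 without SCC32. Between cell kinds, the 5 genes became 1 with DESeq2, 15 without the filter, 240 with at least 10 cells, 40 without the mix library, 30 without few-marker cells, 2 with blood vessel-like cells alone, and 1 (without SCC40 day 16 tumour 1) to 59 (without SCC35 day 16 tumour 1) with a tumour left out. The cause was not tested. DESeq2 split its 6 calls over time 3 higher and 3 lower. Of 237 values of named genes under alternatives, 166 stayed on their side of the threshold, 71 did not pass and 0 reversed.

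Depth limits these results: 5 to 13 cells per tumour in the tests over time, and 7 cells in SCC31.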

Other observations

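Notch and angiopoietin genes divided the vessel kinds unevenly, as a description with no test. Notch4 was at 173 CPM in blood vessel-like and 7.32 in lymphatic-like cells, and the ligands Dll4 and Jag2 were at 201 and 40.2, and 51.9 and 11. Notch1 was at 149 and 190. Tek, the Tie2 receptor, was at 63.2 and 51.2, and Angpt2 at 102 and 183, against 13.1 in the other Ptprc- and Tyrobp-negative cells. The BMP9 receptor genes Eng (622 and 168) and Acvrl1 (76.2 and 25.6) were higher in blood vessel-like cells.

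Leukocyte adhesion genes were mostly of the blood vessel-like cells. Vcam1 was at 323 and 32.9 CPM, but the other Ptprc- and Tyrobp-negative cells had 469. Icam1 was at 203 and 95.1, Icam2 at 374 and 209, Selp at 51.9 and 3.66, Ackr1 at 43.8 and 0 and Sele at 11.3 and 0. Selp had 4, 10 and 2 counts in the earlier blood vessel-like pools of SCC32, SCC35 and SCC37 and 0 in each later pool. Cd274, which encodes PD-L1, was at 118 and 29.3, and at 119 in leukocyte-gene cells.

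Cells with at least 3 of 7 cell cycle genes made up 19.8% of blood vessel-like, 15.9% of lymphatic-like and 43.3% of few-marker cells, and 22% of the other Ptprc- and Tyrobp-negative cells. Thinned to 2000 UMIs these were 8.79%, 2.56%, 20.7% and 12.5%.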
